A study of Mus musculus with 12 samples.

Results

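The ADAMTS proteases examined here are 9 genes of 51707 in the deposited data, Adamts1, Adamts2, Adamts4, Adamts5, Adamts7, Adamts9, Adamts10, Adamts12 and Adamts15, taken by name from a fixed list. All 9 were among the 14711 genes that passed the low-count filter, but Adamts15 passed only through its level in differentiated controls and therefore had to differ between groups. RNA was sequenced from 12 libraries of mouse cells labelled MLO-Y4, wild type, with 3 libraries in each of 4 groups, named differentiated BIGH3, differentiated control, undifferentiated BIGH3 and undifferentiated control. BIGH3 is the secreted matrix protein encoded by TGFBI, and the treated cells received the recombinant human protein. All cells grew on type I collagen from rat tail, coated at 0.15 mg/mL. Differentiated cells were kept in α-MEM with serum at 10%, ascorbic acid at 50 µg/mL and β-glycerophosphate at 4 mM. For undifferentiated cells the labels give no medium, so differentiation and a direct effect of the medium cannot be told apart. Neither the dose and time of BIGH3 nor the treatment of the controls is stated in the labels, and no library was labelled with hydroxychloroquine or anti-BIGH3 antibody, which the protocol text also mentions.

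MLO-Y4 is a clonal osteocyte-like line from mice that carry a viral T antigen under the osteocalcin promoter. Names in the deposited data begin with MC3, which the labels do not explain, and whether the cells are this line was not tested. Of 13 osteocyte and osteoblast markers 10 were tested, with summed levels of 2260 to 2530 CPM in differentiated BIGH3, 2520 to 2870 CPM in differentiated control, 2850 to 3470 CPM in undifferentiated BIGH3 and 3150 to 3490 CPM in undifferentiated control libraries. Most of that sum was Col1a1 (1616 to 3049 CPM), and other markers had other orders. Phex stood at 20.9 to 25.6 CPM in differentiated BIGH3, 80.2 to 87.3 in differentiated control, 7.21 to 8.61 in undifferentiated BIGH3 and 7.57 to 9.19 CPM in undifferentiated control libraries. Alpl, Bglap, Ibsp, Mepe and Sp7 were also highest in differentiated controls. In contrast, Dmp1, Gja1 and Pdpn were highest in differentiated BIGH3 libraries. Dmp1 stood at 80.14 to 95.25 CPM in differentiated BIGH3 and 35.55 to 38.58 CPM in differentiated control libraries. Gja1 had 204 to 213 and 115 to 122 CPM, and Pdpn 263 to 294 and 183 to 204 CPM, in the same order of groups. Fgf23, a defining osteocyte hormone, had 0 reads everywhere, and Sost, which encodes sclerostin, had reads in differentiated controls alone. CPM are estimated reads scaled to a common library size, and TPM are the authors' length-corrected values. Depth was 19014492 to 27612155 estimated reads per library. Transcripts of 8 liver markers summed to 94.9 CPM in undifferentiated control 2, 45.3 CPM in differentiated BIGH3 3, 37.9 CPM in differentiated control 2 and 18.8 CPM in undifferentiated BIGH3 1, against 2.11 to 5.03 CPM in the other 8 libraries. Separate cultures within a group are not stated, so the p-values reflect only how far these libraries spread, which may be technical. In bulk RNA, fewer cells of a type and less RNA per cell cannot be told apart.

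ADAMTS proteins are secreted metalloproteases that cut components of the extracellular matrix. Each is made as an inactive proenzyme, is usually activated by furin-like convertases, and carries thrombospondin type I repeats that help it bind matrix. Members fall into groups by substrate. ADAMTS1, 4, 5, 9 and 15 cut proteoglycans such as aggrecan and versican, ADAMTS2 removes the amino propeptide of fibrillar procollagens, ADAMTS7 and 12 cut cartilage oligomeric matrix protein, and ADAMTS10 acts on fibrillin microfibrils. TIMP3 is the main tissue inhibitor of the aggrecanases, and LRP1 takes several of them up from the cell surface.

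All 9 members share the zinc-binding site of the catalytic domain. Its coding bases are shown because this site defines the genes as proteases and lets the members be compared over this short stretch. The stretch comes from the GENCODE M21 transcripts of GRCm38, 5′ to 3′ on the coding strand, with the 3 histidine codons and the glutamate codon in capitals.
Adamts1: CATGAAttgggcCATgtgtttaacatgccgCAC
Adamts4: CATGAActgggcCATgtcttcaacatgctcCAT
Adamts5: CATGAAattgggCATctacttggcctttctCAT
Adamts9: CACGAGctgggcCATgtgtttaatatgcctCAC
Adamts15: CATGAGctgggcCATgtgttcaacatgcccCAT
Adamts2: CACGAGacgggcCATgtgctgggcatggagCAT
Adamts7: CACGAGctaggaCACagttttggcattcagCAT
Adamts12: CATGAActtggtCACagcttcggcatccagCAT
Adamts10: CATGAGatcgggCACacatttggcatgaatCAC
Of the 33 bases, 12 were identical in all 9 members. Each stretch was found by its 3 histidines and glutamate, so the first 2 bases of those 4 codons were identical by selection. This also sets a floor under every count of identical bases between members. The closest pair was Adamts4 and Adamts15, with 30 identical bases, and the most distant was Adamts9 and Adamts12, with 17. Adamts7 and Adamts12 shared 26 bases. Adamts5 was closest to Adamts10, with 22 identical bases. With the other proteoglycan-cutting members Adamts1, Adamts4, Adamts9 and Adamts15 it shared 20, 19, 18 and 19. In each gene the site is split by an intron. It lies in exons 3 and 4 of Adamts1 (chr16:85799191-85799545, minus strand) and of Adamts4 (chr1:171253210-171253915, plus strand), in exons 2 and 3 of Adamts5 (chr16:85878015-85887826, minus strand) and of Adamts15 (chr9:30911255-30911690, minus strand), and in exons 7 and 8 of Adamts2 (chr11:50775403-50776134, plus strand). For Adamts7 it lies in exons 7 and 8 (chr9:90179456-90180640, plus strand), for Adamts12 in exons 7 and 8 (chr15:11241529-11255564, plus strand), for Adamts9 in exons 8 and 9 (chr6:92905285-92908493, minus strand) and for Adamts10 in exons 9 and 10 (chr17:33538157-33538279, plus strand). Adamts1 and Adamts5 are neighbours on the same strand of chromosome 16, at 85793827 to 85803113 and 85856173 to 85901828.

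The first question was what BIGH3 did to these genes in differentiated cells. Adamts4 and Adamts7 rose more than 2-fold, Adamts1 rose slightly, Adamts2 and Adamts5 fell, and Adamts15 was near 0 in treated cells. Adamts9, Adamts10 and Adamts12 did not pass the test. By edgeR's quasi-likelihood test at an adjusted p below 0.05, 3 of 9 members were called higher and 3 lower, Adamts15 among the lower, while 45.5% of all genes tested were called (22.6% higher, 22.9% lower). The member median log2 fold change was -0.14, against -0.01 over all genes. The libraries of the groups did not overlap for 8 of 9 members, against 55.1% of all genes. Adamts15 is among these 8, and for it this was fixed by the filter. The members are therefore described one by one.

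**Figure D1:**
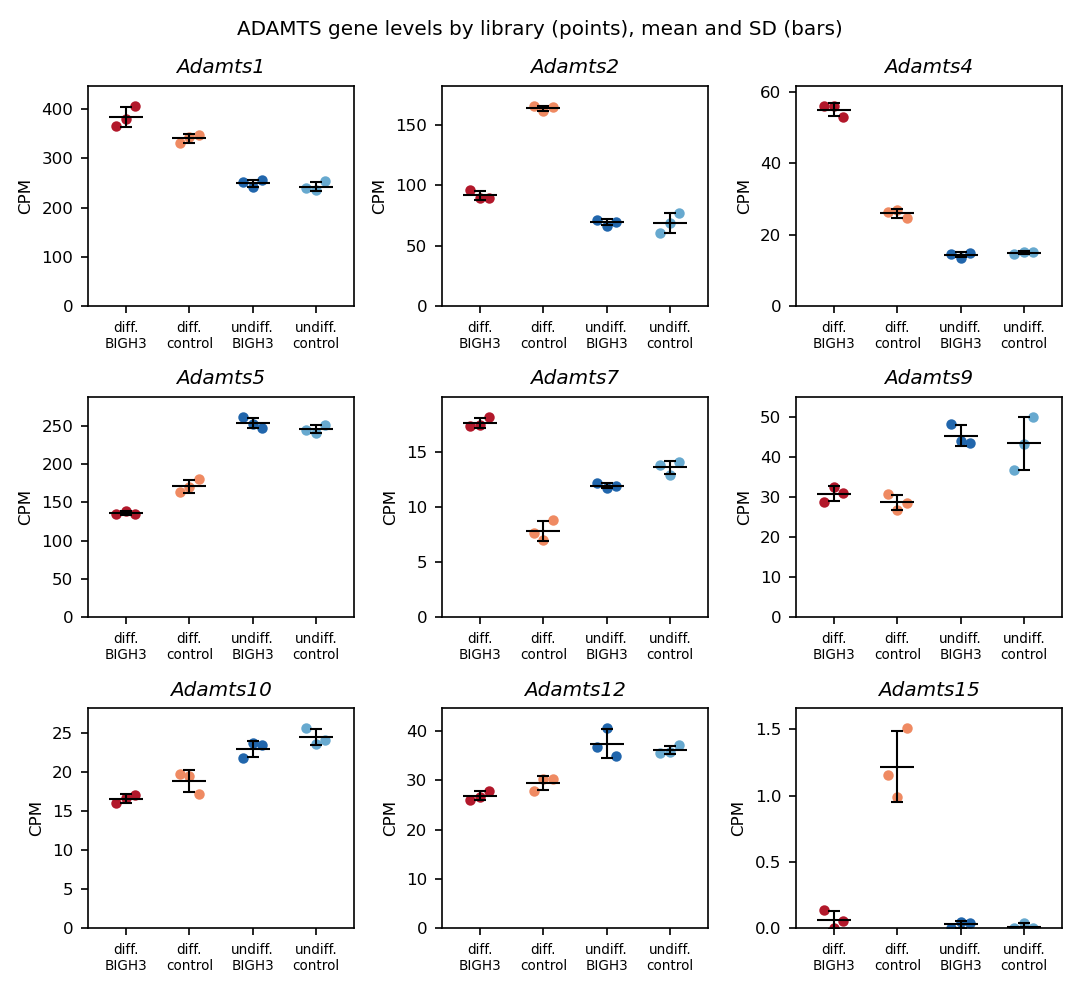
Level of each ADAMTS gene in CPM (vertical axes from 0) in every library (points), with mean and SD bars, for differentiated BIGH3, differentiated control, undifferentiated BIGH3 and undifferentiated control (3 libraries each). Adamts4 and Adamts7 lie higher in differentiated BIGH3 than in differentiated control libraries, Adamts2 and Adamts5 lie lower, and the undifferentiated groups overlap for every gene but Adamts7.

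Among the proteoglycan-cutting members, Adamts4, aggrecanase-1, had 56.0, 55.9 and 52.9 CPM in the differentiated BIGH3 libraries, against 26.4, 27.1 and 24.7 CPM in the differentiated controls. Every treated library lay far above every control. The difference was 2.11-fold, a log2 fold change of 1.08 ± 0.07 (SE, n = 3 per group, adjusted p = 2.33e-11). Adamts5, aggrecanase-2, moved the other way, with 135, 139 and 135 CPM in differentiated BIGH3 and 164, 170 and 180 CPM in differentiated control libraries. All treated libraries were below all controls, and the log2 fold change was -0.33 ± 0.05 (adjusted p = 8.69e-06). The ratio of Adamts4 to Adamts5 TPM was 1.02 (range 0.987 to 1.05) in differentiated BIGH3 and 0.382 (0.356 to 0.398) in differentiated control libraries.

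Adamts1, an inflammation-associated protease that cuts aggrecan and versican, stood at 366, 380 and 406 CPM in differentiated BIGH3 and at 330, 344 and 348 CPM in differentiated control libraries. The groups did not overlap, but the step was small, at 1.13-fold (log2 fold change 0.17 ± 0.05, adjusted p = 0.00702). The call was lost without differentiated BIGH3 3 (0.12, adjusted p = 0.0723) and without differentiated control 1 (0.14, adjusted p = 0.0558). It was also lost without the 3 libraries that carried most liver transcripts (0.12, adjusted p = 0.130) and without those and undifferentiated BIGH3 1 (0.14, adjusted p = 0.0871). Adamts9, a versican-cutting protease of the cell surface, had 28.8, 32.4 and 31.1 CPM in differentiated BIGH3 and 30.6, 26.7 and 28.5 CPM in differentiated control libraries. These ranges overlapped, and its log2 fold change of 0.10 ± 0.09 was not called (adjusted p = 0.401).

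Adamts15, a further versican-cutting member, had 3, 0 and 1 reads in the differentiated BIGH3 libraries, against 28, 21 and 33 reads in the differentiated controls. Differentiated controls were thus the only group with more than a few reads, at 0.990 to 1.51 CPM. The ratio of rates of differentiated BIGH3 to differentiated control was 0.0561, with an exact 95% counting interval of 0.0149 to 0.149 that covers counting error only. The fitted log2 fold change was -4.07 ± 0.70 (adjusted p = 6.92e-05), but the gene entered the test only because these controls were high.

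Adamts2, the main procollagen N-proteinase, had 96.1, 89.6 and 89.5 CPM in differentiated BIGH3 and 166, 162 and 164 CPM in differentiated control libraries. The treated libraries lay well below the controls, with a log2 fold change of -0.84 ± 0.06 (adjusted p = 9.42e-10). A second enzyme with the same activity, Adamts14, is not among the 9 members and changed in the opposite direction. It averaged 28.35 ± 1.0 CPM in differentiated BIGH3 and 13.04 ± 0.67 CPM in differentiated control libraries (SD, n = 3), a log2 fold change of 1.12 ± 0.09 (adjusted p = 1.28e-09).

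Adamts7, which cuts cartilage oligomeric matrix protein, had 17.3, 17.4 and 18.1 CPM in differentiated BIGH3 and 7.61, 6.98 and 8.79 CPM in differentiated control libraries. This was the largest rise among the 9 members, 2.26-fold (log2 fold change 1.18 ± 0.10, adjusted p = 2.14e-09). Its relative Adamts12 had 26.1, 26.7 and 27.9 CPM in differentiated BIGH3 and 27.9, 30.3 and 30.3 CPM in differentiated control libraries. The highest treated and the lowest control library nearly met, and the log2 fold change of -0.14 ± 0.07 was not called (adjusted p = 0.132). Adamts10 had 16, 16.7 and 17.1 CPM in differentiated BIGH3 and 19.8, 19.5 and 17.2 CPM in differentiated control libraries, and was not called (-0.18 ± 0.08, adjusted p = 0.0642). Corrected for transcript length it was called lower, with -0.36 by length offsets (adjusted p = 0.00996) and -0.30 in TPM with a pseudocount of 0.5 (adjusted p = 0.0204), and it was also called lower without differentiated control 3 (-0.26, adjusted p = 0.0188).

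Because no source used here states the strand of the libraries, reads of genes that overlap on opposite strands could not be told apart. Adamts7 shares 122 of its 6282 exon bases with Tbc1d2b, which also rose with BIGH3 in differentiated cells (0.72 ± 0.05, adjusted p = 1.02e-10). On differentiation of control cells Tbc1d2b rose (0.62 ± 0.05) while Adamts7 fell. In BIGH3 treated cells both genes rose on differentiation (1.38 ± 0.05 for Tbc1d2b and 0.56 ± 0.09 for Adamts7). The interaction was also called higher for both, at 0.76 ± 0.07 for Tbc1d2b and 1.36 ± 0.13 for Adamts7. Whether shared reads had a part in these values was not tested.

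BIGH3 moved no member past the threshold in undifferentiated cells, where 0.0204% of all genes were called (0.0068% higher, 0.0136% lower). None had an unadjusted p below 0.05, a level that 599 of the 14711 genes reached, and DESeq2 and the other alternatives also called 0 members. Adamts4 had 14.6, 13.6 and 15 CPM in undifferentiated BIGH3 and 14.6, 15.3 and 15.3 CPM in undifferentiated control libraries. Adamts2 had 71.7, 66.7 and 70.0 CPM in undifferentiated BIGH3 and 60.5, 69.1 and 76.7 CPM in undifferentiated controls. Both pairs of groups overlapped, and the log2 fold changes were -0.06 ± 0.07 for Adamts4 and 0.01 ± 0.06 for Adamts2 (each with adjusted p = 1.00). Adamts7 was the 1 member whose groups did not overlap, against 8.96% of all genes, with 12.2, 11.7 and 11.9 CPM in undifferentiated BIGH3 and 13.8, 12.9 and 14.1 CPM in undifferentiated controls (log2 fold change -0.19 ± 0.09, unadjusted p = 0.0546, adjusted p = 1.00). Adamts1, at 242 to 256 and 235 to 253 CPM, and Adamts5, at 247 to 261 and 241 to 251 CPM in undifferentiated BIGH3 and undifferentiated control libraries, had log2 fold changes of 0.04 and 0.05. Those of Adamts9, Adamts10 and Adamts12 were 0.06, -0.09 and 0.05. Adamts15 had 2 reads in undifferentiated BIGH3 and 1 read in undifferentiated control libraries in all.

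The interaction term tested whether the response to BIGH3 differed between the states. It was called for 5 of 9 members, 2 higher and 3 lower including Adamts15, where 32.2% of all genes were called (16.2% higher, 16% lower). Relative to the response in undifferentiated cells, that in differentiated cells was higher by 1.14 ± 0.10 for Adamts4 (adjusted p = 1.09e-08) and by 1.36 ± 0.13 for Adamts7 (adjusted p = 6.86e-08) on the log2 scale. For Adamts2 it differed by -0.85 ± 0.09 (adjusted p = 3.17e-07) and for Adamts5 by -0.37 ± 0.07 (adjusted p = 0.000174). The interaction of Adamts15, -4.91 ± 1.77 (adjusted p = 0.0394), rests on a handful of reads and lost its call under 12 of the 21 alternatives. For Adamts1 (0.13 ± 0.07, adjusted p = 0.164), Adamts9 (0.04 ± 0.13), Adamts10 (-0.09 ± 0.11) and Adamts12 (-0.18 ± 0.10) a difference between the states was not called.

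**Figure D2:**
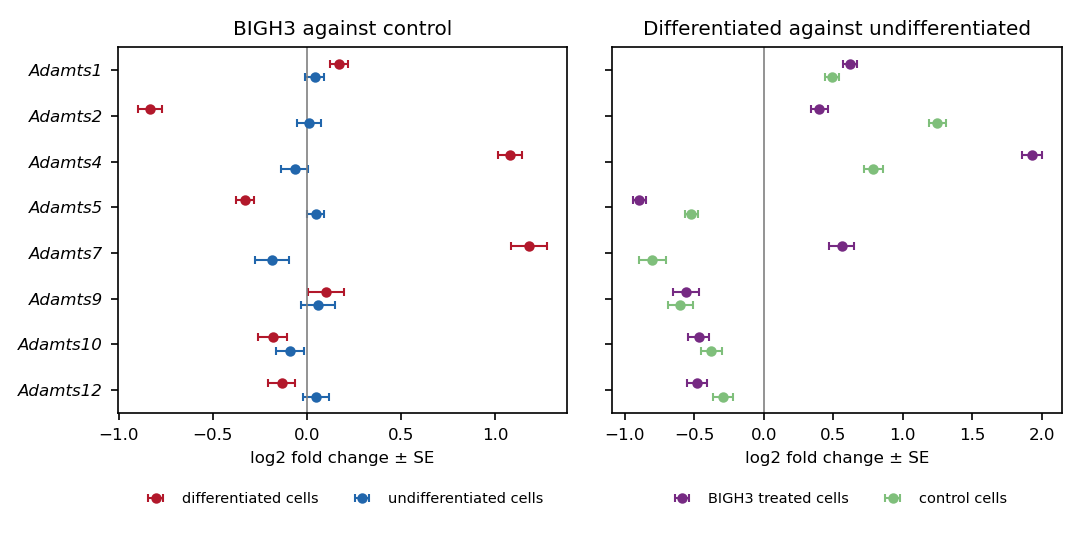
Log2 fold changes (horizontal axes, points) with standard errors (bars) of 8 ADAMTS genes, for BIGH3 against control and for differentiation, with Adamts15 left out for its few reads. With BIGH3, Adamts7 reaches 1.18 and Adamts4 1.08 in differentiated cells, whereas all 8 lie between -0.19 and 0.06 in undifferentiated cells.

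The medium comparison shares its control libraries with the BIGH3 comparisons, so its values are given only side by side with them. In control cells all 9 members were called between differentiated and undifferentiated libraries, 4 higher and 5 lower, with no overlap for any of the 9. For Adamts15, 1 of the 4 higher, this was fixed by the filter, and the other 8 were 3 higher and 5 lower (57.7% of all genes were called, 29.1% higher and 28.6% lower, and 63.4% did not overlap). Adamts2 had the largest log2 fold change of the 8 well-measured members, 1.25 ± 0.06 (adjusted p = 1.5e-12), with 164 ± 2.0 CPM in differentiated and 68.8 ± 8.1 CPM in undifferentiated controls. Adamts4 rose by 0.79 ± 0.07, with 26.0 ± 1.2 CPM in differentiated and 15.1 ± 0.37 CPM in undifferentiated controls (adjusted p = 5.33e-09). Adamts1 rose by 0.49 ± 0.05, with 341 ± 9.2 and 242 ± 9.3 CPM in differentiated and undifferentiated controls (adjusted p = 3.73e-08). Adamts15 had 82 reads over the differentiated and 1 read over the undifferentiated controls, a ratio of rates of 90.8 with a 95% counting interval of 15.8 to 3630.

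The other 5 members were lower in differentiated controls. Adamts5 stood at 171 ± 8.5 CPM in differentiated and 246 ± 4.9 CPM in undifferentiated controls, a log2 fold change of -0.52 ± 0.05 (adjusted p = 7.17e-09). Adamts7 had -0.80 ± 0.10 (adjusted p = 4.1e-07), Adamts9 -0.60 ± 0.09 (adjusted p = 1.39e-05), Adamts10 -0.38 ± 0.08 (adjusted p = 0.000233) and Adamts12 -0.29 ± 0.07 (adjusted p = 0.00114). The median log2 fold change of all genes in this comparison was -0.01 after TMM scaling, -0.16 with library totals and -0.28 in TPM. Every member kept its direction and call under these scalings.

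In BIGH3 treated cells 8 of 9 members differed between the states, 4 higher and 4 lower, against 56.6% of all genes (28.9% higher, 27.7% lower), and the libraries of 8 did not overlap, against 62.6% of all genes. Adamts4 showed the largest change, with 55.0 ± 1.8 CPM in differentiated and 14.4 ± 0.71 CPM in undifferentiated BIGH3 libraries, 3.81-fold (log2 fold change 1.93 ± 0.07, adjusted p = 2.08e-15). Adamts7 was higher in differentiated BIGH3 libraries, at 17.6 ± 0.46 against 11.9 ± 0.21 CPM in undifferentiated BIGH3 (0.56 ± 0.09, adjusted p = 2.71e-05). That is the opposite of its direction in control cells, and the interaction above is the test of this difference. Adamts5 had -0.90 ± 0.05 (adjusted p = 1.56e-12) and Adamts1 0.62 ± 0.05 (adjusted p = 1.14e-09). Adamts9, Adamts10 and Adamts12 were lower by 0.56, 0.47 and 0.48 on the log2 scale. Adamts2 was higher by 0.40 ± 0.06 (adjusted p = 2.34e-05), a call that was lost in TPM with a pseudocount of 0.5 (0.17, adjusted p = 0.145). Adamts15 had 4 reads in differentiated and 2 reads in undifferentiated BIGH3 libraries and was not called.

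Levels of different genes were compared in TPM. Adamts1 was first in every group, with 99.0 ± 7.7 TPM in differentiated BIGH3, 86.8 ± 2.5 in differentiated control, 74.8 ± 3.0 in undifferentiated BIGH3 and 76.3 ± 3.4 in undifferentiated control libraries. It made up 59.5%, 53.9%, 47.8% and 47.2% of the summed TPM of the members in those groups. In differentiated BIGH3 libraries Adamts2 (16.6 TPM), Adamts4 (15.6) and Adamts5 (15.3) followed with overlapping ranges, then Adamts10 (5.88), Adamts9 (4.997) and Adamts7 (4.931), the last pair overlapping, and Adamts12 (3.89). In differentiated controls the order was Adamts2 (29.1 TPM), Adamts5 (19.2), Adamts10 and Adamts4 (7.37 and 7.34, overlapping), Adamts9 (4.87), Adamts12 (4.06) and Adamts7 (2.02). Both undifferentiated groups had the same order, with Adamts5 second, at 32.95 TPM with BIGH3 and 34.0 TPM in controls, followed by Adamts2, Adamts10, Adamts9, Adamts12, Adamts4 and Adamts7. Neighbours in that order overlapped only for Adamts2 and Adamts10 in undifferentiated controls. Adamts15 was last everywhere, at 0.252 TPM in differentiated controls and at most 0.028 TPM in any library of the other groups.

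In TPM the sum over the 9 members varied less than its parts. It was 161 to 176 TPM in differentiated BIGH3, 157 to 164 in differentiated control, 152 to 162 in undifferentiated BIGH3 and 156 to 170 in undifferentiated control libraries, and these ranges overlapped. On differentiation the median log2 fold change of all genes in TPM was -0.28 in control and -0.18 in BIGH3 treated cells. After TMM scaling those medians were -0.01 and 0.01, and the sum was not computed under that scaling. Within it the ratio of Adamts7 to Adamts12 was 1.27 in differentiated BIGH3, 0.501 in differentiated control, 0.615 in undifferentiated BIGH3 and 0.674 in undifferentiated control libraries.

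**Figure D3:**
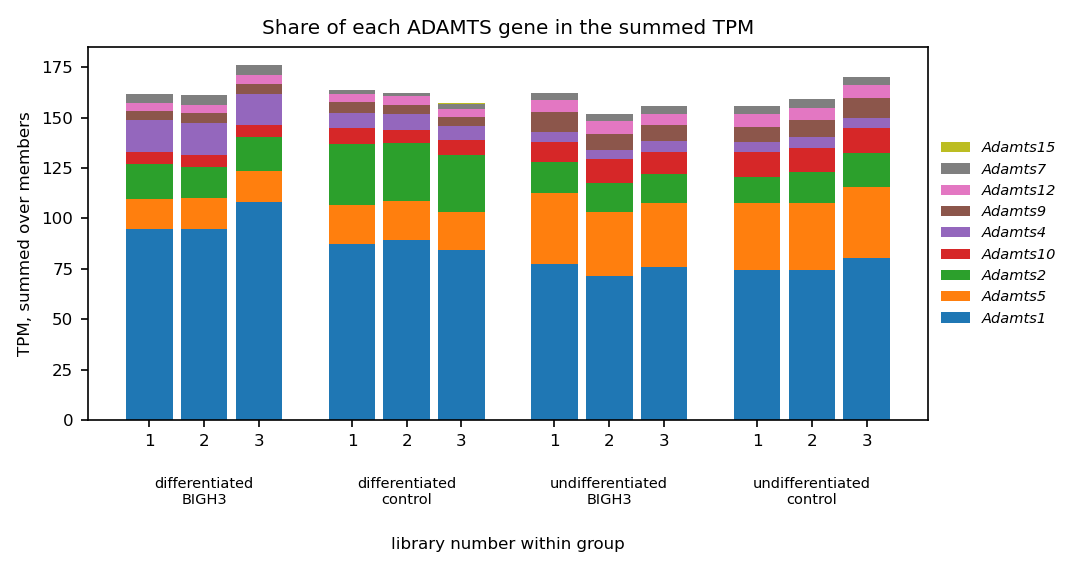
Stacked bars of the TPM of each ADAMTS gene in every library (vertical axis, TPM summed over members, from 0), grouped by condition with the library number within the group below. Adamts1 forms the largest part of every bar, the Adamts4 part is widest in differentiated BIGH3 libraries, and the Adamts5 part is widest in undifferentiated libraries.

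Most members were carried by protein-coding transcripts. These made up 98.2% to 100% of the TPM of Adamts1 in every library, all of that of Adamts4 and Adamts5, and 79.3% of that of Adamts2 in differentiated BIGH3 and 81.1% in differentiated control libraries. Adamts10 was the exception. Protein-coding transcripts held 31.0% of its TPM in differentiated BIGH3 (16.8% to 44.6% over libraries), 45.1% in differentiated control, 24.4% in undifferentiated BIGH3 and 22.9% in undifferentiated control libraries, and the remainder was assigned to retained-intron and nonsense-mediated-decay transcripts. For Adamts7 the coding share was 80.1%, 73.0%, 75.5% and 82.97% in the same order of groups. How estimated reads divide between overlapping transcripts depends on the authors' model.

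For each member the gene whose 4 group means of log2 CPM, centred on their mean, lay closest was sought among 10314 other genes (10315 for Adamts15). These distances describe 4 points each and carry no test. Adamts1 was closest to Abhd5 (distance 0.019), Adamts2 to Zhx3 (0.0261), Adamts5 to Epb41l4a (0.0323), Adamts9 to Btbd8 (0.0417), Adamts10 to Iqce (0.0197) and Adamts12 to Rapgef1 (0.0204). Adamts4 was closest to Phlda1 (0.0555), which stood at 175 ± 16 CPM in differentiated BIGH3, 79.1 ± 5.7 in differentiated control, 45.4 ± 2.1 in undifferentiated BIGH3 and 46.4 ± 3.1 in undifferentiated control libraries. Adamts7 was closest to Arid5a (0.0698), with 18.6 ± 0.25, 8.68 ± 0.21, 12.6 ± 1.1 and 14.6 ± 0.41 CPM in that order of groups. The nearest gene to Adamts15 was Igf2, at a larger distance (0.366), with 1081 ± 60 CPM in differentiated controls against 110.7 to 165.0 CPM on average in the other groups.

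Related genes were grouped by role, and the median log2 fold change with BIGH3 in differentiated cells was -0.52 for other ADAMTS genes, -0.37 for ADAMTS-like genes, -0.35 for substrates, 0.25 for inhibitors and clearance genes and -0.02 for processing genes, against -0.01 over all genes. The value of 0.25 is that of Fbln1, with 24 and 23 reads in differentiated BIGH3 and differentiated control libraries and a standard error of 1.4, and the other 6 genes of its list lay between -1.22 and 1.66. The list counts for BIGH3 in differentiated cells stand against 22.6% of all genes called higher and 22.9% called lower. Of 10 other ADAMTS genes 4 were tested, and with BIGH3 in differentiated cells 1 rose and 2 fell. Besides Adamts14, the changed genes were Adamts6 (5.60 ± 1.1 CPM in differentiated BIGH3 and 9.14 ± 0.32 CPM in differentiated control, log2 fold change -0.71 ± 0.14, adjusted p = 0.000385) and Adamts8 (0.649 ± 0.095 and 2.96 ± 0.58 CPM, -2.18 ± 0.37, adjusted p = 6.12e-05). Adamts14 also showed an interaction with the state (1.12 ± 0.13, adjusted p = 9.93e-07). Among 7 ADAMTS-like genes, which resemble the proteases but lack the catalytic domain, 5 were tested, with 0 higher and 4 lower. Adamtsl3 had -0.67 ± 0.06 (adjusted p = 4.64e-09), Thsd4 -0.44 ± 0.06 (adjusted p = 2.05e-06) and Adamtsl1 -0.37 ± 0.06 (adjusted p = 3.65e-05). In TPM the calls of Adamtsl3 (-0.39, adjusted p = 0.0642), Adamtsl1 (-0.15, 0.0956) and Adamtsl5 (-0.21, 0.0525) were lost.

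Of 14 substrates 10 were tested with BIGH3 in differentiated cells, and 0 rose and 7 fell. Col2a1, the cartilage collagen, stood at 6.67 ± 0.96 CPM in differentiated BIGH3 and 49.7 ± 2.9 CPM in differentiated control libraries (-2.91 ± 0.12, adjusted p = 1.6e-10). Ccn2, a matricellular growth factor, had 20.1 ± 1.0 and 40.2 ± 2.4 CPM (-0.998 ± 0.093, adjusted p = 1.75e-08), and Fbn1, which encodes fibrillin-1, had 471 ± 12 and 627 ± 10 CPM (-0.41 ± 0.06, adjusted p = 5.49e-06) in the same order of groups. Among the other fibrillar procollagens, Col1a1 had -0.30 ± 0.10, Col1a2 -0.24 ± 0.06 and Col3a1 -0.43 ± 0.11. When the 3 libraries richest in liver transcripts were left out, the calls of Col1a1 (adjusted p = 0.135) and Col3a1 (0.0616) were lost, and in TPM that of Col1a2 was lost (0.0613). Col1a1 was also not called without differentiated BIGH3 3 (0.0918) or differentiated control 1 (0.0651). Of the proteoglycan substrates, Bcan, brevican, was called lower (-1.82 ± 0.36, adjusted p = 0.000339). It was low, with 31 reads in differentiated BIGH3 and 125 reads in differentiated control libraries in all. The other proteoglycans were scarce or not called. Acan, aggrecan, had 5 reads in differentiated BIGH3 and 2 reads in differentiated control libraries in all and was not tested. Vcan, versican, had 202 ± 3.0 and 190.1 ± 6.8 CPM in those groups (0.09 ± 0.05, adjusted p = 0.201), but with length offsets its value turned to -0.15 (adjusted p = 0.0162). The 5 markers of cartilage cells, Sox9, Col2a1, Acan, Col9a1 and Matn1, summed to 122 to 130 CPM in differentiated BIGH3, 202 to 210 in differentiated control, 325 to 348 in undifferentiated BIGH3 and 327 to 362 CPM in undifferentiated control libraries, and their part in the results was not tested. Most of that sum was Sox9 (115 to 122 CPM in differentiated BIGH3, 149.7 to 153.8 in differentiated control, 215 to 226 in undifferentiated BIGH3 and 215 to 234 CPM in undifferentiated control libraries), Acan was at most 0.243 CPM, and Col9a1 was highest in differentiated controls (1.74 to 2.73 CPM).

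Of 8 inhibitors and clearance genes 7 were tested with BIGH3 in differentiated cells, and 3 rose and 3 fell. Timp3 stood at 1135 ± 26 CPM in differentiated BIGH3 and 2052 ± 51 CPM in differentiated control libraries (-0.85 ± 0.04, adjusted p = 4.17e-13). Timp2 (-0.36 ± 0.04, adjusted p = 3.02e-07) and Timp4 (-1.22 ± 0.15, adjusted p = 1.24e-06) also fell, whereas Timp1 rose (1.66 ± 0.11, adjusted p = 3.36e-07), so the 4 inhibitors did not move together. Lrp1 had 1441 ± 77 and 694 ± 41 CPM in differentiated BIGH3 and differentiated control libraries (1.05 ± 0.145, adjusted p = 0.000341). Sdc4, a cell-surface proteoglycan that binds ADAMTS5, rose by 0.85 ± 0.05 (adjusted p = 2.07e-11). The interaction was called for 6 of the 7, 3 higher and 3 lower, against 16.2% and 16% of all genes. These were Timp3 (-0.87 ± 0.06, adjusted p = 2.29e-10), Timp1 (1.60 ± 0.15, adjusted p = 1.54e-05), Sdc4 (0.86 ± 0.07, adjusted p = 8.81e-09), Lrp1 (1.04 ± 0.20, adjusted p = 0.00442), Timp2 (-0.32 ± 0.06, adjusted p = 0.000163) and Timp4 (-1.12 ± 0.30, adjusted p = 0.00798). In TPM the interaction of Timp2 was not called (-0.23, adjusted p = 0.115), nor was that of Timp4 without undifferentiated BIGH3 1 (-0.81, adjusted p = 0.118) or without the 3 libraries richest in liver transcripts (-0.98, adjusted p = 0.0672).

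Of 9 genes for proenzyme processing and glycosylation 7 were tested, and 2 rose and 2 fell. Furin had 125 ± 7.0 CPM in differentiated BIGH3 and 127 ± 4.4 CPM in differentiated control libraries (-0.02 ± 0.06, adjusted p = 0.809). B3glct, which extends the fucose on thrombospondin repeats, rose (0.50 ± 0.08, adjusted p = 2.08e-05). Bmp1, the procollagen C-proteinase, rose by 0.22 ± 0.04 (adjusted p = 0.00035), and Pcolce, its enhancer, had -0.35 ± 0.05 (adjusted p = 4.57e-06). Pcsk5, a convertase, had 0 reads in differentiated BIGH3 and 57 in differentiated control libraries, at least 16.5-fold lower in BIGH3, with the floor set at 3 reads in the summed group. With 2 reads and 1 read in undifferentiated BIGH3 and undifferentiated control libraries, it passed the filter only through differentiated controls and so had to differ, and Pcolce was the other of the 2 that fell. In undifferentiated cells no gene of these 5 lists was called with BIGH3.

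**Figure D4:**
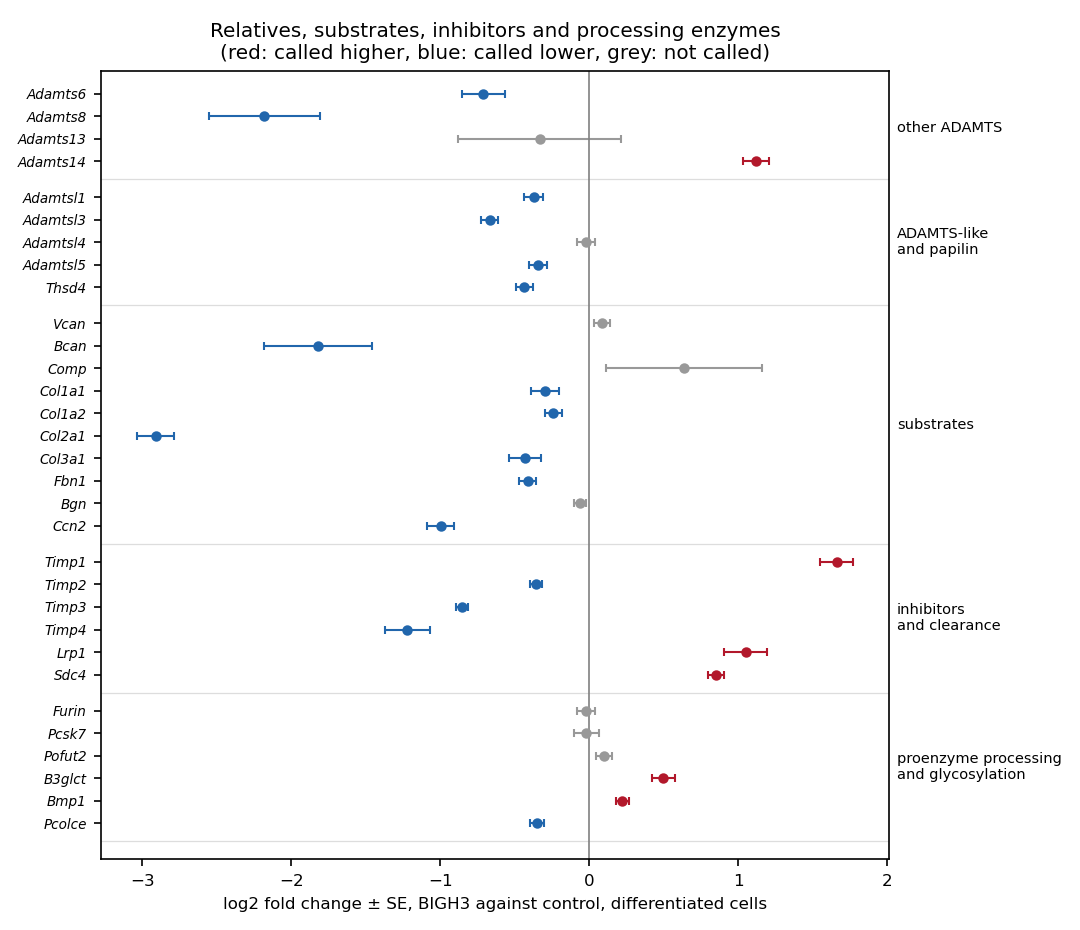
Log2 fold change with BIGH3 in differentiated cells (horizontal axis, points, with standard errors as bars) of the tested relatives, substrates, inhibitors and processing enzymes (rows), with Pcsk5 and Fbln1 left out. Red points were called higher, blue points lower and grey points were not called. Col2a1 lies furthest left at -2.91 and Timp1 furthest right at 1.66.

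On differentiation of control cells, with 29.1% of all genes called higher and 28.6% lower, the lists gave 2 higher and 1 lower of 4 other ADAMTS genes, 2 higher and 3 lower of 5 ADAMTS-like genes, 3 higher and 4 lower of 10 substrates, 5 higher and 0 lower of 7 inhibitors and clearance genes, and 4 higher and 3 lower of 7 processing genes. Pcsk5 is among the higher processing genes and was fixed by the filter. Adamts8, among the higher other ADAMTS genes, had 198 reads in differentiated and 12 reads in undifferentiated controls. It passed the filter only through the differentiated groups, so its rise was also built in by the filter. The 1 lower gene of that list was Adamts13 (-1.40 ± 0.48, adjusted p = 0.0161), with 20 reads in differentiated and 59 reads in undifferentiated controls. Adamts13 passed only through undifferentiated libraries, so its fall was likewise built in. Its call was lost without differentiated control 1 (adjusted p = 0.0738) and under further alternatives. Timp4 rose by 4.55 ± 0.19 on the log2 scale (adjusted p = 5.11e-14), Adamts8 by 4.13 ± 0.43 (adjusted p = 5.55e-08), Ccn2 by 2.04 ± 0.10 (adjusted p = 3.12e-13) and Furin by 0.77 ± 0.06 (adjusted p = 3.9e-09). Adamtsl3 had -1.21 ± 0.05 (adjusted p = 6.67e-14) and Col2a1 -1.22 ± 0.09 (adjusted p = 6.46e-08). In TPM the calls of Timp1 (-0.01), Timp2 (0.12), Sdc4 (-0.02), Fbn1 (-0.07), Thsd4 (0.15) and Col3a1 (0.13) were lost, and with library totals those of Timp1 (0.13), Sdc4 (0.13) and Fbn1 (0.08). TPM differ from the main fit in length correction and test as well as in scaling. Timp3 rose in control cells (0.56 ± 0.04, adjusted p = 2.37e-10) and fell in BIGH3 treated cells on differentiation (-0.30 ± 0.04, adjusted p = 2.16e-06).

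In BIGH3 treated cells the same lists gave, on differentiation and against 28.9% of all genes called higher and 27.7% lower, 2 higher and 1 lower other ADAMTS genes, 1 higher and 3 lower ADAMTS-like genes, 1 higher and 6 lower substrates, 5 higher and 1 lower inhibitors and clearance genes, and 5 higher and 1 lower processing genes. Adamts8 is again among the higher genes, with 38 reads in differentiated and 17 reads in undifferentiated BIGH3 libraries, and the same limit of the filter holds for it. Of the 6 lower substrates, Col1a2 (-0.15 ± 0.06, adjusted p = 0.0344) had overlapping groups. Its call was lost without differentiated BIGH3 3 (adjusted p = 0.123) and under further alternatives. Bcan (-1.05 ± 0.37, adjusted p = 0.0208) also lost its call without that library (0.0858) or without undifferentiated BIGH3 2 (0.075). With library totals 3 of the 5 higher processing genes lost their call, B3glct (adjusted p = 0.431), Bmp1 (0.169) and Pcolce (0.368), as did Timp2 (0.53), and all 4 also lost it in TPM. Adamts14 rose by 1.77 ± 0.09 (adjusted p = 1.08e-12), Lrp1 by 1.16 ± 0.15 (adjusted p = 0.000126) and Furin by 0.78 ± 0.06 (adjusted p = 3.78e-09) on the log2 scale. Vcan was not called (-0.08 ± 0.05, adjusted p = 0.231) but was lower with library totals (-0.19, adjusted p = 0.00544) and in TPM (-0.48, adjusted p = 4.48e-06).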

How the data were processed

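The tools listed in the submitters' processing notes are Salmon, cutadapt, FastQC and StringTie, and the build is mm10; tool versions and the order of steps are not given in the sources used here. Per the file headers, the deposited values are estimated counts (expected counts that need not be whole), TPM and effective lengths in bases per transcript. Of 147828 transcripts, 137063 (92.7%) matched GENCODE M21; the others held 1.28% to 3.67% of the reads and were left out. Values were summed per gene and counts rounded.

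After filterByExpr and TMM scaling, all 12 libraries entered a single robust quasi-likelihood fit by group in edgeR 4.0.16 under R 4.3.3, with 8 residual degrees of freedom. Tests were two-sided with Benjamini-Hochberg adjustment over 14711 genes, and a gene was called at an adjusted p below 0.05. The biological coefficient of variation was 8.18%. The fit was tested on simulated data. Alternatives used DESeq2 1.42.0, limma 3.58.1 on log2(TPM + 0.5) and log2(TPM + 0.1), other scalings and filters, and fewer libraries. The members and lists were chosen with earlier results of these data known. All 9 members are named, with up to 3 called genes of smallest adjusted p per list and comparison and, always, Timp3, Acan, Vcan, Furin and Lrp1; further list genes were named after their values were seen. Errors are SE for fold changes and SD for levels. A result on 1 gene outside the members is not reported here.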

Additional observations from a re-analysis of the deposited data

Results flagged for a closer look

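For 5 members, of which Adamts15 had to differ because it passed the filter only through differentiated controls, the response to BIGH3 differed between differentiated and undifferentiated cells by the interaction test. On the log2 scale the difference (differentiated minus undifferentiated) was -0.85 for Adamts2, 1.14 for Adamts4, -0.37 for Adamts5, 1.36 for Adamts7 and -4.91 for Adamts15. The first 4 kept their direction and call under all 21 alternatives, with ranges of -0.94 to -0.77 for Adamts2, 1.08 to 1.19 for Adamts4, -0.42 to -0.27 for Adamts5 and 1.26 to 1.45 for Adamts7. In undifferentiated BIGH3 and undifferentiated control libraries Adamts15 had 2 reads and 1 read, and its call was lost under 12 of the 21 alternatives.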

How the results depend on the processing

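Counts of members called were within 1.5 times the reported counts under all 109 alternatives tried. Of 979 values of single members, 935 kept direction and call, 18 lost a call, 4 gained one and 22 changed sign. None of those 22 was called. For BIGH3 in undifferentiated cells, TPM with pseudocounts of 0.5 and 0.1 gave -0.028 and -0.028 for Adamts1, -0.020 and -0.020 for Adamts2, -0.046 and -0.046 for Adamts5, -0.022 and -0.023 for Adamts9, and -0.025 and -0.026 for Adamts12. Adamts2 had -0.014 with library totals and -0.011 without the 4 libraries with liver transcripts. Leaving out 1 library at a time gave -0.072 to 0.098 for Adamts2, -0.044 to 0.175 for Adamts9 and -0.015 to 0.096 for Adamts12 in that comparison, -0.058 to 1.61 for Adamts15 between the states in BIGH3 treated cells, and -0.074 to 0.144 for the interaction of Adamts9. The interaction of Adamts9 was -0.032 with length offsets and -0.024 without the 3 libraries with most liver transcripts. Same-numbered libraries did not deviate together (mean correlation -0.0174, against 0.00926 for different numbers, 4 of 18 pairs over 0.1), and each library correlated best with its own number in 9 of 36 tests, so the numbers were not treated as pairs. With a replicate block 1 member call was lost, the Adamts15 interaction (-4.9, adjusted p = 0.0591). Adamts15 had at most 33 reads in a library. The cause of these changes was not tested.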
